A study of Mus musculus with 11 samples.

Results

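The caudal neural tube of the mouse embryo was sampled on both sides of the point where the neural folds meet, at 2 stages, and each gene was asked whether the difference between closed and open tissue was the same at both. The quantity is the region-by-stage interaction, the closed-minus-open difference at E9.5 minus that at E8.5, on a log2 scale where 1 is a factor of 2. A positive interaction means that closed tissue gained signal relative to open tissue from E8.5 to E9.5, and a negative one that it lost signal. Of 18193 genes with a probe set that names a single gene, each taken at the probe set whose mean signal was highest, 13341 had a mean signal of at least 4.3 (log2), the 40th percentile of all probe sets, and were tested. Of these, 167 passed an adjusted p of 0.05 in limma (1.25%), and they were sorted by which of the 4 groups stood apart from the other 3.

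All embryos were C57BL/6, from timed matings, with no genetic change or drug in any group. The groups were open neuroepithelium at E8.5 (3 arrays), closed neural tube at E8.5 (2 arrays), open neuroepithelium at E9.5 (3 arrays) and closed neural tube at E9.5 (3 arrays). Open tissue lay caudal to the junction, and was cut to keep out the primitive streak at E8.5 and the tail bud at E9.5. Closed tissue began 1 somite rostral to it and ended a few somites further on. Every sample had been loosened in 2.5% pancreatin and 0.5% trypsin on ice, for 5 min at E8.5 and 8 min at E9.5, and still carried the adhering notochord. The embryos, 111 in number, were pooled within litters, and 50 ng of RNA per sample was amplified in 2 cycles for Affymetrix whole-genome mouse arrays. The authors had removed 1 further closed E8.5 array for its quality. Closed tissue always lies rostral to open tissue, so closure and axial level cannot be told apart here, and neither can fewer cells of a type and less RNA per cell.

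As background, the neural tube of the trunk closes in a rostral-to-caudal wave while progenitors at the caudal end go on adding new tissue under Wnt and FGF signals. Tissue that leaves this zone meets retinoic acid from the somites and Shh from the notochord and takes on neural and positional identity. Hox genes are switched on in the order of their position in the clusters, so that later-forming, more caudal tissue carries higher-numbered paralogues. By E9.5 the junction has moved caudally, and the tissue on both of its sides belongs to more caudal levels than that at E8.5.

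Markers of neural progenitors were found in every group, though not at equal levels. Sox1, Sox2, Sox3, Pax6, Nes and Cdh2 were all detected above the filter, and their mean per array was 8.61 to 10.24 (log2). Pax6 read 6.06 to 6.92 in open and 9.10 to 10.70 in closed arrays, and Sox1 5.68 to 7.83 in open and 8.52 to 8.98 in closed arrays. Of the caudal progenitor markers, 3 of 4 were on the table (Nkx1-2, Cdx2, Cyp26a1), with means of 11.47 to 12.10 in open and 8.46 to 9.0 in closed arrays. Somite and presomitic markers (6 of 6 on the table) averaged 4.89 and 5.89 in the 2 closed E8.5 arrays and 4.67 to 5.12 elsewhere. Foxc2 and Twist1 of that list lay below the filter on average. Embryonic globin and other blood markers (6 of 6, with Gata1 and Alas2 below the filter) averaged 4.81 to 6.02 at E8.5 and 6.58 to 7.37 at E9.5. The globins moved most. Hbb-y read 5.01 to 8.88 at E8.5 and 10.61 to 12.34 at E9.5, Hbb-bh1 5.72 to 8.59 and 8.96 to 10.77, and Hba-x 5.02 to 6.31 and 6.91 to 8.04. Open E8.5 array 1 was the lowest for each of these globins. Gata1, Klf1 and Alas2 lay between 3.63 and 5.51 on every array. The 3'-minus-5' signal of the Gapdh and Actb controls, which rises where RNA is degraded or amplified unevenly, was 2.20 and 2.48 in open E9.5 arrays 1 and 2 and 1.14 to 1.82 in the other 9.

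Among the 167 genes, 40 had a positive interaction (0.300% of those tested) and 127 a negative one (0.952%). Negative interactions were thus the larger set, and 134 of the 167 were at least 1 in size, with a median size of 1.36. The median over all tested genes was -0.02. In 67 of the 167 (40.1%) closed minus open had opposite signs at E8.5 and E9.5, near the share among all tested genes (43.42%). In 43 (25.7%, against 29.99%) it kept its sign and was larger at E9.5, and in 57 (34.1%, against 26.59%) it kept its sign and was smaller at E9.5. Full crossovers, with a called difference at both stages and opposite signs, were 8, of which 5 went from higher to lower in closed tissue and 3 from lower to higher. At the edge of the threshold, Wrap73 (-0.94, limma adjusted p = 0.0496) and St8sia6 (0.98, adjusted p = 0.0491) were inside, and Lemd3 (-1.51) and Dab1 (0.88), both with an adjusted p of 0.0508, were outside. The number that passed moved with single arrays: it was 94, 106 and 84 without open E8.5 array 1, 2 or 3, 102 without closed E8.5 array 2, 100 and 97 without open E9.5 array 1 or 2, and 105 and 94 without closed E9.5 array 2 or 3. With open and closed arrays of 1 number and stage fitted as a block, 452 genes passed (113 positive, 339 negative), among them 166 of the 167. Open E8.5 array 3 has no closed partner, so that fit draws its E8.5 difference from arrays 1 and 2 of each region. With the number as a block over both stages 129 passed, and 11 named calls ended, with adjusted p-values of 0.0534 to 0.12: Bhlhe40, Ccn2, Gadd45g, Has2, Hoxa5, Hoxc4, Hoxc5, Mycn, Pou3f3, Slc2a1 and Sox18.

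**Figure D1:**
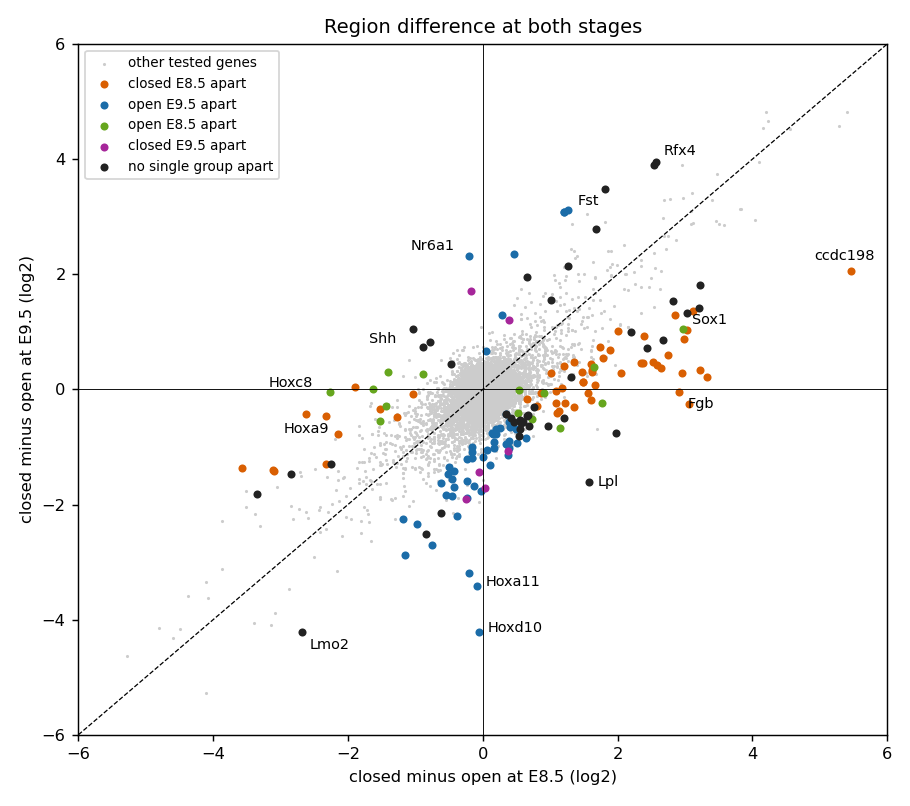
Closed minus open at E8.5 (x axis) against closed minus open at E9.5 (y axis), both in log2, for 13341 tested genes in grey and 167 genes past the interaction threshold in colour by the group that stands apart. The dashed line marks equal differences at both stages, and genes such as Hoxd10, Hoxa11 and Nr6a1 lie on the vertical axis because they differed between regions at E9.5 and hardly at E8.5.

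A group was said to stand apart where its mean was the highest or lowest and its gap to the nearest of the other 3 means exceeded the range of those 3. On this description 126 of the 167 genes had a single group apart and 41 had none. The 2 largest classes were genes high in closed E8.5 tissue and genes high in open E9.5 tissue, 44 each (26.3% of the called genes, against 8.13% and 10.45% of all tested genes). The others were low in closed E8.5 (11), low in open E8.5 (8), low in open E9.5 (7), high in open E8.5 (6), low in closed E9.5 (4) and high in closed E9.5 (2). In all 126 the arrays of the group apart did not overlap those of any other group. Genes chosen by a small p and a wide gap tend to show this, so it is no separate support for the classes. The share of such genes among all tested genes is not given here. No test compares these classes, since the interaction itself decides which shapes can pass.

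**Figure D2:**
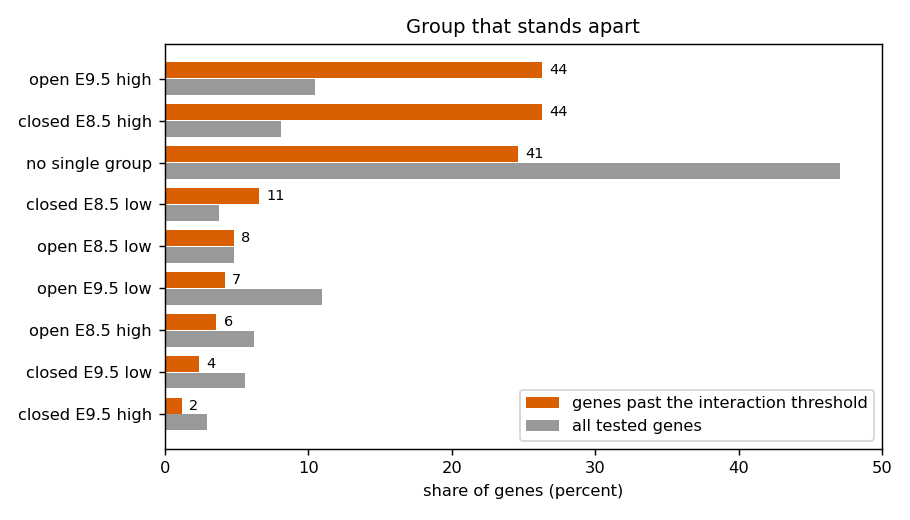
Share of genes (x axis, percent) in each class of group that stands apart, for the 167 genes past the interaction threshold (orange, with their number) and for all 13341 tested genes (grey). Genes high in open E9.5 or closed E8.5 tissue, 44 each, make up the longest orange bars, and the class with no single group apart is the longest grey bar at 47.1%.

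Genes high in closed E8.5 tissue lost most of that lead in closed tissue by E9.5, and 9 of the 44 had a group mean below the filter elsewhere. All 44 were higher in closed than in open tissue at E8.5 (3.80% of tested genes were), 13 were still higher at E9.5 (2.75% were), and 43 fell in closed tissue between the stages (1.46% did). Being highest in closed E8.5 tissue defines the class, so the first and last of these counts follow largely from the sorting. The median interaction was -1.51, from -3.40 to -0.71. Fgb, the beta chain of the clotting protein fibrinogen, read 7.12 and 6.80 in closed E8.5 tissue, 3.94, 4.18 and 4.03 in open E8.5, 4.23, 4.04 and 3.93 in open E9.5 and 4.18, 4.09 and 3.79 in closed E9.5. Only the closed E8.5 arrays thus rose above the level of the filter. The closed-minus-open difference was 2.91 ± 0.15 (SE) at E8.5 and -0.04 ± 0.13 at E9.5, an interaction of -2.95 (adjusted p = 0.000116), the smallest p of all genes.

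Sfrp5, a secreted antagonist of Wnt ligands, behaved alike: it read 8.42 and 9.03 in closed E8.5 tissue, 5.70 to 5.81 in open E8.5, 5.45 to 5.60 in open E9.5 and 5.79 to 5.88 in closed E9.5. Its interaction was -2.68 ± 0.22 (adjusted p = 0.000183), and -0.78 ± 0.21 at a second, dimmer probe set. Pth1r, the receptor for parathyroid hormone and its related peptide, was 8.04 and 8.62 in closed E8.5 tissue and between 4.93 and 5.93 on the other 9 arrays. For Pth1r the interaction was -2.88 ± 0.23 (adjusted p = 0.000183). At E9.5 closed minus open was 0.28 ± 0.14 for Sfrp5 (adjusted p = 0.341) and 0.33 ± 0.16 for Pth1r (adjusted p = 0.271), short of the threshold in both.

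The POU-domain transcription factor Pou3f1 read 7.76 and 7.63 in closed E8.5 tissue, 4.77 to 5.11 in open E8.5, 4.09 to 4.22 in open E9.5 and 4.60 to 4.96 in closed E9.5. It kept a small called difference at E9.5 (0.59 ± 0.12) after one of 2.75 ± 0.14 at E8.5. The interaction was -2.16 (adjusted p = 0.000237), and -0.89 ± 0.20 at a second, dimmer probe set. Slc12a5, the potassium-chloride cotransporter of neurons, was 8.94 and 8.35 in closed E8.5 tissue and 5.24 to 5.97 elsewhere, with an interaction of -3.32 ± 0.31 (adjusted p = 0.000439). Dleu7 kept more of its region difference, with 2.85 ± 0.12 at E8.5 and 1.30 ± 0.11 at E9.5. Ankrd44, an ankyrin-repeat protein, was 6.57 and 6.97 in closed E8.5 tissue against 5.40 to 6.02 elsewhere.

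Folr1, the folate receptor whose loss in mice leaves the neural tube open, also belonged here, at 6.57 and 7.14 in closed E8.5 tissue and 5.18 to 5.78 on the other arrays (interaction -1.36 ± 0.27, adjusted p = 0.0368). It was the only 1 of 22 tested folate and one-carbon genes to pass (1.25% of all tested genes did), and their median interaction was 0.00. Sox18, a transcription factor of endothelium, was 5.72 and 5.84 against 4.42 to 4.93 (-0.71, adjusted p = 0.0457, and 0.0716 with the replicate block). Kdr, Pecam1, Cdh5 and Tek, defining endothelial markers, averaged 4.10 to 4.41 in all groups, with the last 3 below the filter.

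Somite markers were unequal in the 2 closed E8.5 arrays: Foxc2 read 4.08 in array 1 and 6.50 in array 2, Twist1 4.15 and 5.90, and Meox1 6.30 and 8.11. Of the 44 genes high in closed E8.5 tissue, array 1 was the higher of the pair in 21 and array 2 in 23. Without array 2, 32 of the 44 passed and their median interaction was -1.43, and without array 1 it was 31 and -1.60. A single array then stands for the group and is assumed to vary like the rest. Counted anew in each fit, genes high in closed E8.5 tissue were 28 without open E8.5 array 3, 29 without closed E8.5 array 2, 29 without open E9.5 array 1 and 28 without closed E9.5 array 3. With the replicate block they were 71.

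The 11 genes low in closed E8.5 tissue were held at a higher level in open tissue at both stages and in closed tissue at E9.5. All 11 were lower in closed than in open tissue at E8.5 (3.38% of tested genes were), 6 still were at E9.5 (5.79% were), and all 11 rose in closed tissue between the stages (0.959% did). Both counts of 11 follow largely from the sorting, since being lowest in closed E8.5 tissue defines the class. The median interaction of the 11 genes was 1.69. Of these, 5 were Hox genes, described with their family. Il17rd, a membrane inhibitor of FGF signalling, read 8.38 and 8.66 in closed E8.5 tissue, 11.54 to 11.74 in open E8.5, 11.79 to 12.03 in open E9.5 and 10.42 to 10.60 in closed E9.5. Its region difference went from -3.10 ± 0.12 to -1.42 ± 0.11 (interaction 1.69, adjusted p = 0.00063). Another, dimmer probe set of Il17rd gave 0.56 ± 0.23.

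Etv5, an ETS transcription factor induced by FGF, followed the same course with a wider spread in closed E8.5 tissue, at 5.50 and 6.66 there, 9.38 to 9.85 in open E8.5, 9.75 to 10.17 in open E9.5 and 8.43 to 8.84 in closed E9.5. The interaction of Etv5 was 2.21 ± 0.38 (adjusted p = 0.0175). Further, dimmer probe sets of Etv5 gave 0.21 ± 0.69 and 1.25 ± 0.76. Aplnr, the receptor for apelin, was 8.49 and 8.53 in closed E8.5 tissue and at least 9.88 elsewhere (1.87 ± 0.32, adjusted p = 0.0142). Among 29 tested genes of the FGF pathway and its feedback, Il17rd and Etv5 passed in the positive direction and Mycn in the negative, with a list median of 0.27. Of all tested genes 0.300% passed as positive and 0.952% as negative. With the replicate block the counts for the list were 4 and 1, beside 113 and 339 of all 13341 tested genes. Fgf8 itself, the ligand, fell steeply from open to closed tissue at both stages (-4.37 ± 0.23 and -3.59 ± 0.20), and its interaction of 0.78 did not pass (adjusted p = 0.403).

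**Figure D3:**
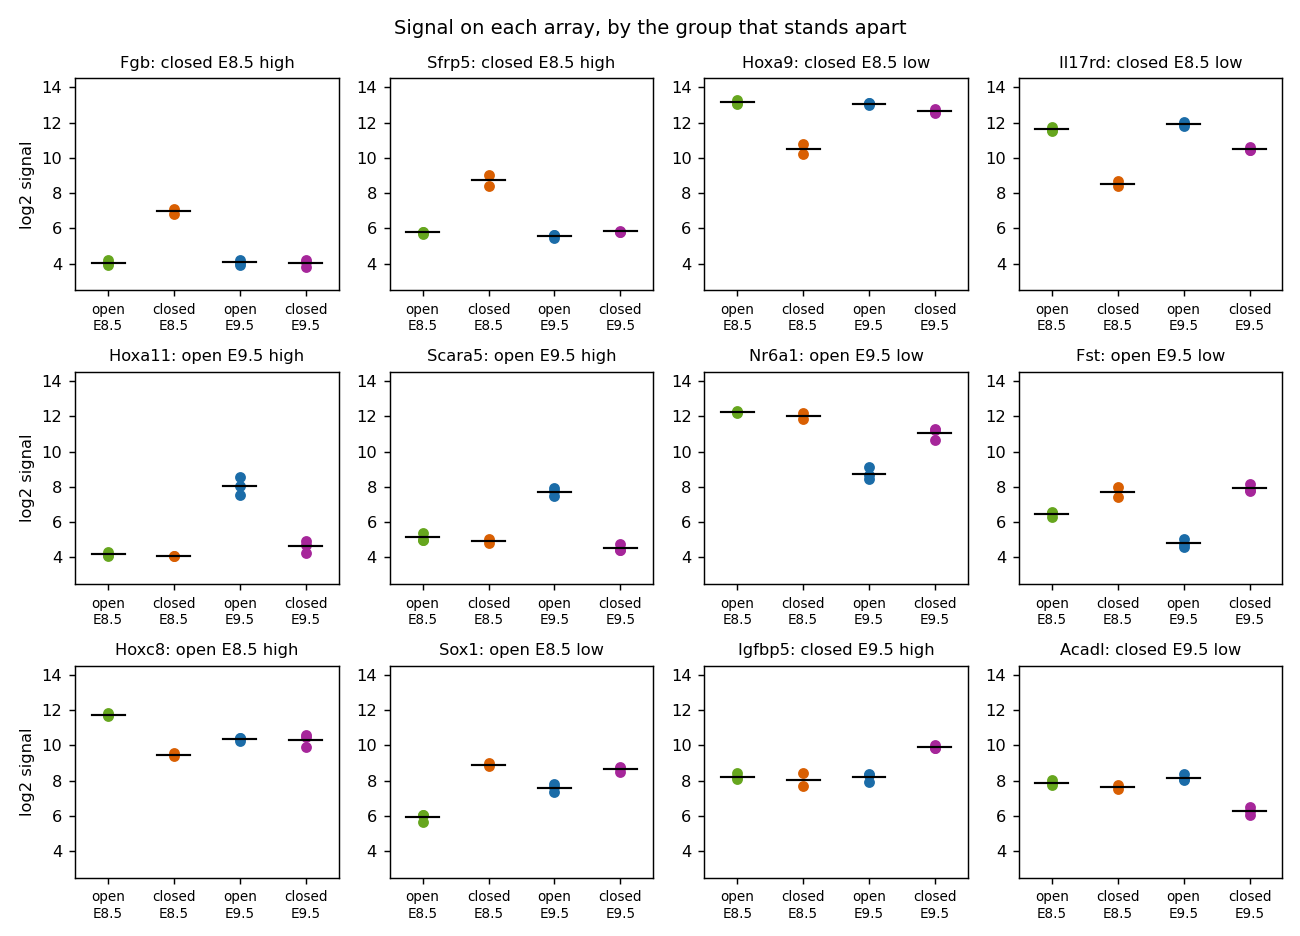
Log2 signal on each of the 11 arrays (points) with group means (bars) for 12 genes past the interaction threshold, by the group that stands apart. In each panel the points of that group lie outside the range of the other 3 groups, as for Fgb at 7.12 and 6.80 in closed E8.5 tissue.

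Genes high in open E9.5 tissue came up late and on the open side, and 10 of the 44 had a group mean below the filter elsewhere. All 44 were lower in closed than in open tissue at E9.5 (5.79% of tested genes were), and 8 already were at E8.5 (3.38% were). All 44 rose in open tissue between the stages (3.61% of tested genes did). Being highest in open E9.5 tissue defines the class, so both counts of 44 follow largely from the sorting. In closed tissue 0 changed by limma's adjusted p (12 at an unadjusted p under 0.05), against 0.959% of tested genes that rose and 1.46% that fell. The rule keeps the other 3 means close together, so this count also follows in part from the sorting. Their median interaction was -1.18, from -4.16 to -0.77. Scara5, a scavenger receptor that takes up ferritin, read 7.96, 7.76 and 7.46 in open E9.5 tissue and between 4.42 and 5.40 on every other array. Its region difference was -0.21 ± 0.18 at E8.5 and -3.19 ± 0.16 at E9.5 (interaction -2.98, adjusted p = 0.000183). A second, dimmer probe set of Scara5 gave 0.17 ± 0.22.

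Cd83, a membrane protein of the immunoglobulin family known from dendritic cells, was 7.44, 7.5 and 7.53 in open E9.5 tissue against 4.04 to 5.13 elsewhere (-1.94 ± 0.21, adjusted p = 0.00111). Igfbp3, a carrier of insulin-like growth factors, was 8.72, 8.61 and 8.59 against 6.24 to 7.43 (-1.81 ± 0.21, adjusted p = 0.00147). The class also held Has2, which makes the matrix polysaccharide hyaluronan, at 9.53, 9.60 and 9.29 in open E9.5 tissue and 7.24 to 8.01 elsewhere (-1.27, adjusted p = 0.0329). Has2 was the 1 gene of 31 extracellular matrix and integrin genes to pass (list median 0.01, and 1 positive and 3 negative with the replicate block). Of all tested genes 1.25% passed. Bhlhe40, a repressor induced by hypoxia and other stimuli, passed with -0.77 (adjusted p = 0.0329). Hoxa11, Hoxd10 and Hoxa5 are described with their family.

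Open E9.5 arrays 1 and 2 had the highest 3'-minus-5' signal of all arrays. With the 3'-minus-5' signal as a covariate, 41 of the 44 passed with a median of -1.16. Without arrays 1 and 2 together, 14 passed and the median was -1.19, with array 3 assumed to vary like the other groups. Blood markers moved with stage, the globins most, with a list mean of 7.22 to 7.37 in open and 6.58 to 7.30 in closed E9.5 arrays. Their part in the class was not tested. The count of the class, found anew in each fit, was 18 to 28 when any 1 array other than those of open E9.5 was left out, 23 and 22 without open E9.5 array 1 or 2, 68 without open E9.5 array 3, 29 after quantile normalization and 112 with the replicate block.

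Low in open E9.5 tissue were 7 genes, all of which fell in open tissue between the stages (1.42% of tested genes did). In closed tissue 2 of them also fell (1.46% did). The count in open tissue follows largely from the sorting, since being lowest in open E9.5 tissue defines the class. Nr6a1, a nuclear receptor that shuts down pluripotency genes and is needed for trunk development, read 12.31, 12.18 and 12.25 in open E8.5 tissue, 12.20 and 11.87 in closed E8.5, 8.67, 8.42 and 9.12 in open E9.5 and 11.20, 10.68 and 11.31 in closed E9.5. It was therefore near its top in both regions at E8.5, lower in closed tissue and far lower in open tissue at E9.5. The change from E8.5 to E9.5 was -3.51 ± 0.19 in open and -0.97 ± 0.21 in closed tissue. Nr6a1 thus had an interaction of 2.53 ± 0.29 (adjusted p = 0.00138).

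Fst, follistatin, which binds activin, was 5.07, 4.77 and 4.57 in open E9.5 tissue, 6.31 to 6.56 in open E8.5, 7.45 and 8.02 in closed E8.5 and 7.78 to 8.15 in closed E9.5 (1.84 ± 0.27, adjusted p = 0.00588). Ret, the receptor tyrosine kinase of the GDNF family, was 5.19 to 5.75 in open E9.5 tissue and 7.41 to 9.0 elsewhere (1.90 ± 0.29, adjusted p = 0.00794). Ptprz1, a receptor tyrosine phosphatase of neural progenitors, was 5.07 to 5.90 against 8.12 to 9.71 (1.87 ± 0.30, adjusted p = 0.0109). Fst, Ret and Ptprz1 were all higher in closed tissue at both stages, and the difference widened because open tissue lost signal. Slc2a1, the glucose transporter GLUT1, had the smallest shift of the class, at 12.22 to 12.32 against 12.83 to 13.08 (0.63 ± 0.12, adjusted p = 0.0309). Probe sets of these genes differed in size: a further one of Ret gave 0.10 ± 0.27, and those of Nr6a1 1.94 ± 0.21, 0.67 ± 0.22 and 0.26 ± 0.38. With the mean of a gene's probe sets, 3 of the 7 passed and their median interaction was 1.09, against 1.87 with the brightest probe set.

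Open E8.5 tissue stood apart in 14 genes. Of the 6 that were high there, all fell in open tissue by E9.5 (1.42% of tested genes did). That count follows largely from the sorting, since being highest in open E8.5 tissue defines the class. Wnt8a, a Wnt ligand of the caudal end, read 5.69, 5.92 and 5.75 in open E8.5 tissue and 4.01 to 4.73 elsewhere (interaction 1.70 ± 0.21, adjusted p = 0.00224). Rxrg, a retinoid X receptor, was 6.80, 6.62 and 6.42 against 4.99 to 5.78 (1.15, adjusted p = 0.0102). The others of this class that the naming rule gave, Hoxc8 and Hoxa7, are described with their family.

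All 8 genes low in open E8.5 tissue rose in open tissue by E9.5 (3.61% of tested genes did). In closed tissue 0 of them changed by limma's adjusted p (1 at an unadjusted p under 0.05). The sorting largely fixes the rise in open tissue, and in part the count in closed tissue. Sox1, a transcription factor that marks neural progenitors, read 6.06, 6.08 and 5.68 in open E8.5 tissue, 7.37 to 7.83 in open E9.5, 8.84 and 8.98 in closed E8.5 and 8.52 to 8.76 in closed E9.5. Open tissue thus came nearer to the closed level, and the region difference went from 2.97 ± 0.17 to 1.05 ± 0.15 (interaction -1.92, adjusted p = 0.00191). A second, dimmer probe set of Sox1 gave an interaction of -0.25 ± 0.22. Kitl, the ligand of the KIT receptor, was 7.63 to 7.88 in open E8.5 tissue against 9.06 to 9.99 elsewhere (-2.01 ± 0.32, adjusted p = 0.00922). Fabp7, a fatty acid carrier of radial glia, was 5.15 to 6.00 against 6.42 to 7.49 (-1.82, adjusted p = 0.0371). Ston2, an endocytic adaptor, gave -1.27 (adjusted p = 0.019), and Mycn, a MYC-family factor of proliferating progenitors, -0.54 (adjusted p = 0.0391) from means of 11.99 in open E8.5 tissue and 12.30 to 12.52 in the other groups.

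Closed E9.5 tissue stood apart least often. High there were Igfbp5, another carrier of insulin-like growth factors, at 9.87, 10.02 and 9.86 against 7.69 to 8.44 (1.88 ± 0.29, adjusted p = 0.00793), and the proneural factor Neurog3, at 5.63, 5.78 and 5.51 against 4.36 to 4.96 (0.83 ± 0.15, adjusted p = 0.023). For Igfbp5 a second, dimmer probe set gave 0.51 ± 0.29. Low in closed E9.5 tissue were 4 genes. Acadl, a mitochondrial enzyme of fatty acid oxidation, read 6.49, 6.07 and 6.26 in closed E9.5 tissue and 7.51 to 8.38 elsewhere (-1.65 ± 0.23, adjusted p = 0.00378). The microtubule protein Map2 was 4.68 to 4.88 against 5.33 to 6.62 (-1.74 ± 0.24, adjusted p = 0.00408), the kinase Rps6ka5 5.36 to 5.75 against 6.37 to 7.05 (-1.37, adjusted p = 0.00378) and the ubiquitin ligase Rnf128 6.74 to 7.21 against 7.70 to 8.62 (-1.45, adjusted p = 0.0457). With the mean of a gene's probe sets, 3 of these 4 were tested, 2 passed, and the median moved from -1.55 to -0.88.

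In 41 genes no single group stood apart, with a median interaction of -1.11, which was -0.66 with the mean of a gene's probe sets (39 tested, 28 passed). Shh, the ventral morphogen made by notochord and floor plate, read 11.06, 11.12 and 10.81 in open E8.5 tissue, 9.99 and 10.23 in closed E8.5, 10.28, 10.22 and 10.54 in open E9.5 and 11.16, 10.92 and 11.17 in closed E9.5. The higher side thus changed from open to closed, with closed minus open at -0.89 ± 0.14 and then 0.74 ± 0.13, both called (interaction 1.63, adjusted p = 0.00168). Lpl, lipoprotein lipase, crossed the other way: 8.39 to 8.62 in open and 9.90 and 10.21 in closed tissue at E8.5, and 11.13 to 11.53 in open and 9.44 to 10.31 in closed tissue at E9.5. Lpl gave 1.57 ± 0.23 and -1.61 ± 0.21 (interaction -3.18, adjusted p = 0.000753), and it rose by 2.87 ± 0.21 in open tissue while its change in closed tissue was -0.30 ± 0.23.

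Of 14 tested notochord genes Shh alone passed (1.25% of all tested genes did). The list's median closed-minus-open difference was -0.61 at E8.5 and 0.11 at E9.5, its median interaction 0.55, and 11 of the 14 were positive. With the replicate block 6 notochord genes passed, all positive (113 of all 13341 tested genes were). Shh was also the only called gene of 21 in the floor plate and hedgehog response list (median -0.04) and of 11 in the endoderm list (median 0.17, and 2 positive and 1 negative with the block). Foxa2, the other notochord marker with a value, read 7.47 to 8.04 in open and 8.06 and 8.65 in closed tissue at E8.5, and 7.30 to 7.51 in open and 7.88 to 8.53 in closed tissue at E9.5. How far the amount of attached notochord moves with these values was not tested.

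Other genes of the mixed class were closed-side neural genes whose lead over open tissue widened. Rfx4, a transcription factor of neural progenitors, was 6.60 to 6.92 in open and 9.37 and 9.40 in closed tissue at E8.5, and 4.80 to 5.27 in open and 8.79 to 9.14 in closed tissue at E9.5. The difference went from 2.57 ± 0.17 to 3.95 ± 0.15 (interaction 1.38, adjusted p = 0.0137), mainly through a fall of 1.80 on the log2 scale in open tissue. A second, dimmer probe set of Rfx4 gave an interaction of 0.07 ± 0.19. Ndnf, a secreted factor of neurons and endothelium, went from 1.81 ± 0.17 to 3.48 ± 0.15 (1.67, adjusted p = 0.00378). Pou3f3 widened on the closed side instead, where it read 6.97 and 7.29 at E8.5 and 8.36 to 8.87 at E9.5, with open tissue at 4.29 to 4.91 throughout (1.36, adjusted p = 0.0377).

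Among the mixed genes whose lead narrowed were Tshz1, a zinc finger factor, from 2.82 ± 0.13 to 1.54 ± 0.12 (-1.27, adjusted p = 0.0046), and Ccn2, a matricellular protein and target of YAP, from 2.44 ± 0.26 to 0.72 ± 0.24 (-1.72, adjusted p = 0.0425). Pof1b, an actin-binding protein of epithelial junctions, was lower in closed tissue at both stages, by -3.35 ± 0.16 and then -1.81 ± 0.14 (1.54, adjusted p = 0.0044). Lmo2, an adaptor of blood and endothelial transcription complexes, was the converse, with -2.68 ± 0.20 and then -4.22 ± 0.18 (-1.54, adjusted p = 0.0175), and it read 7.48 to 8.18 in open E8.5 and 8.88 to 9.05 in open E9.5 tissue. With Sox18, Lmo2 made 2 called genes of 12 in the endothelium list (median 0.06), and limma called 0 of 7 tested blood genes (median 0.02, with 3 at an unadjusted p under 0.05, and 1 negative with the block). Of all 13341 tested genes 0.952% passed in the negative direction, and 1279 had an unadjusted limma p under 0.05.

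Hox genes are described by paralogue group. Of 9 tested genes of groups 6 to 9, 6 passed and all in the positive direction, against 0.300% of tested genes. All 9 had a positive interaction, and their median closed-minus-open difference was -1.90 at E8.5 and -0.25 at E9.5. These trunk genes were lower in closed than in open tissue at E8.5, in 8 of 9 past the threshold (3.38% of tested genes), and in 2 of 9 at E9.5 (5.79%). Of 7 tested genes of groups 10 to 13, 2 passed, both negative (0.952% of tested genes were), and the interaction of Hoxc13 was 0.00. Their median difference was -0.09 at E8.5 and -2.09 at E9.5, and at E9.5 closed tissue was lower past the threshold in 6 of 7. Groups 1 to 5 showed no common direction, with 2 positive and 1 negative of 13 (median -0.07, and 2 and 3 with the replicate block).

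Hoxa9 had the highest signal of the family and the smallest p, at 13.12, 13.05 and 13.25 in open E8.5 tissue, 10.77 and 10.24 in closed E8.5, 13.09, 13.12 and 13 in open E9.5 and 12.62, 12.77 and 12.55 in closed E9.5. Closed tissue was low at E8.5 and close to the open level at E9.5, with differences of -2.63 ± 0.13 and -0.42 ± 0.12 (interaction 2.21, adjusted p = 0.000183). Another, dimmer probe set of Hoxa9 gave an interaction of 1.31 ± 0.47. Hoxd8 and Hoxc9, which fall outside the naming rule and were chosen after their values were seen, were also lowest in closed E8.5 tissue. Hoxd8 was 5.03 and 5.21 in closed E8.5 tissue, 7.83 to 8.57 in open E8.5, 9.98 to 10.29 in open E9.5 and 8.55 to 9.16 in closed E9.5 (1.71, adjusted p = 0.0239). Unlike Hoxa9, Hoxd8 remained called lower in closed tissue at E9.5, by -1.40 ± 0.21 (adjusted p = 0.00107). Hoxc9 was 6.87 and 6.97 in closed E8.5 tissue and 8.47 to 9.62 on all other arrays (1.94, adjusted p = 0.0385).

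Hoxc8, Hoxa7 and Hoxb9 reached the same sign with a loss of signal in open tissue. In Hoxc8 the change was -1.38 ± 0.15 in open tissue, and closed tissue also rose, by 0.83 ± 0.17 (limma adjusted p = 0.028). Hoxc8 fell from 11.66, 11.83 and 11.74 in open E8.5 tissue to 10.26, 10.42 and 10.40 in open E9.5, while closed tissue went from 9.42 and 9.55 to 10.59, 9.90 and 10.45 (2.21 ± 0.23, adjusted p = 0.000941). Hoxa7 went from 9.29 to 9.54 in open E8.5 tissue down to 7.98 to 8.47 in open E9.5, with closed tissue at 7.67 to 8.22 (1.63, adjusted p = 0.00313). In Hoxb9 the order turned over: 6.83 to 7.0 in open and 6.10 and 6.18 in closed tissue at E8.5, and 5.56 to 5.67 in open and 6.16 to 6.65 in closed tissue at E9.5 (1.61, adjusted p = 0.00224).

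Hoxa11 and Hoxd10 were near the bottom of the scale in both regions at E8.5. Hoxa11 read 4.08 to 4.29 there, 7.53, 8.03 and 8.54 in open E9.5 tissue and 4.26, 4.70 and 4.91 in closed E9.5 (interaction -3.32 ± 0.34, adjusted p = 0.000844). Hoxd10 read 3.04 to 3.35 at E8.5, 8.93, 9.54 and 9.27 in open E9.5 tissue and 3.70, 6.53 and 4.85 in closed E9.5, so that the closed arrays spread widely below the open ones (-4.16 ± 0.76, adjusted p = 0.0239). Hoxc10 shows that this was not shared by all of the group: it was 11.95 in open and 9.86 in closed E9.5 tissue on average, and its difference was already -1.72 ± 0.42 at E8.5, so its interaction was -0.37 (adjusted p = 0.884). Hoxc10 was also chosen after its values were seen. The count of 2 for groups 10 to 13 was 1 without any of the open E8.5 arrays, either closed E8.5 array, open E9.5 array 2 or closed E9.5 array 3, and 4 with the replicate block. A log2 difference from a signal near the floor of the arrays is compressed.

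The anterior groups held Hoxc4 and Hoxc5, low in closed E8.5 tissue like Hoxa9 (0.97, adjusted p = 0.0269, and 0.80, adjusted p = 0.0416), and Hoxa5, high in open E9.5 tissue like Hoxa11 at 9.26 to 9.36 against 8.27 to 8.74 (-0.93, adjusted p = 0.0296). Cdx2, an activator of central Hox genes and itself a caudal gene, was 11.13 to 11.55 in open and 7.47 and 8.13 in closed tissue at E8.5, and 10.81 to 11.50 in open and 8.71 to 9.21 in closed tissue at E9.5. Its interaction of 1.46 ± 0.34 missed the threshold (adjusted p = 0.0712) and passed it with the replicate block (1.49, adjusted p = 0.00123).

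**Figure D4:**
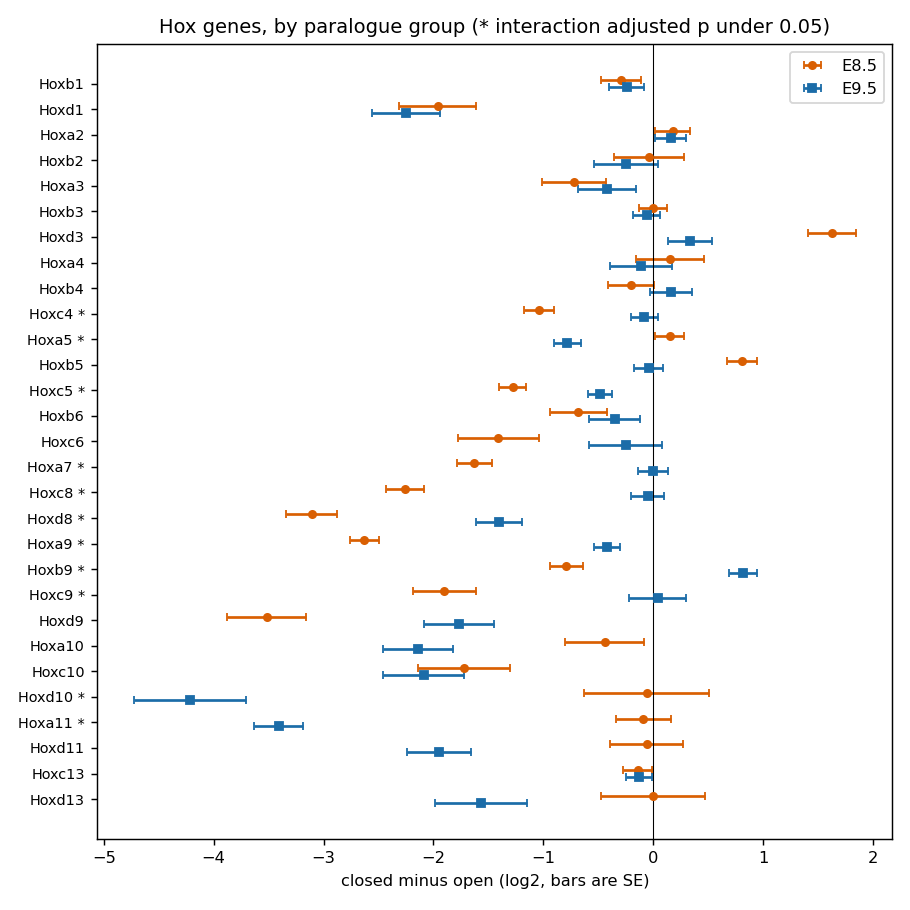
Closed minus open (x axis, log2) at E8.5 (circles) and E9.5 (squares) for the 29 tested Hox genes, from paralogue group 1 at the top to 13 at the bottom, with standard errors as bars and an asterisk at genes past the interaction threshold. In groups 6 to 9 the E8.5 circles lie left of the E9.5 squares, and in most of groups 10 to 13 the E9.5 squares lie far to the left, as for Hoxd10 at -4.22.

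In the cholesterol synthesis list the called members all had negative interactions, of small size and at high signal. The pathway builds cholesterol from acetyl-CoA through mevalonate, squalene and lanosterol, and its genes are switched on together by the SREBP transcription factors when sterol runs low. The list also holds genes of fatty acid synthesis and its regulators, none of which passed (Acly, Fasn, Elovl6, Scd1, Scd2 and Srebf1). Of 26 tested members 8 passed, all negative (0.952% of tested genes were), 25 of 26 were negative, and the median was -0.74. The median closed-minus-open difference was 0.31 at E8.5, with 5 members higher (3.80% of tested genes were) and 0 lower. It was -0.40 at E9.5, with 0 higher and 7 lower (5.79% were). Beside Hmgcs1 and Sc5d, which the naming rule gave, the other called members are named as chosen after their values were seen.

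Hmgcs1, which makes the precursor of mevalonate, read 12.10, 11.98 and 11.97 in open E8.5 tissue, 12.63 and 12.45 in closed E8.5, 12.81, 12.92 and 12.75 in open E9.5 and 12.48, 12.45 and 12.33 in closed E9.5. Open tissue was the lowest group at E8.5 and the highest at E9.5, and closed tissue moved by -0.11 ± 0.09 between the stages. The region differences were 0.52 ± 0.09 and -0.41 ± 0.08, both called (interaction -0.93, adjusted p = 0.00281). Fdft1 and Sqle, which make and oxidize squalene, gave -1.04 (adjusted p = 0.0485) and -0.78 (adjusted p = 0.00612), and Sqle read 10.93 to 11.03 in open and 11.34 in both closed arrays at E8.5, against 11.43 to 11.45 in open and 10.96 to 11.10 in closed tissue at E9.5.

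The late enzymes, which turn lanosterol into cholesterol, followed. Cyp51, the lanosterol demethylase, gave -1.34 (adjusted p = 0.0214), Nsdhl, a sterol dehydrogenase, -0.91 (adjusted p = 0.0296), and Dhcr7, the last reductase, -1.11 (adjusted p = 0.0207). Sc5d, the sterol desaturase, read 8.49 to 8.60 in open and 9.11 and 9.16 in closed tissue at E8.5, and 9.37 to 9.44 in open and 8.71 to 9.0 in closed tissue at E9.5 (-1.17 ± 0.16, adjusted p = 0.00384). Stard4, a carrier of cholesterol within cells, had the largest shift of the list (-1.69, adjusted p = 0.00458). Further probe sets disagreed in part: those of Sc5d gave -0.94 ± 0.22 and 0.12 ± 0.16, and those of Fdft1 -0.75 ± 0.28, 0.10 ± 0.26 and 0.03 ± 0.22. The further probe sets of Hmgcs1 (4), Cyp51 (2) and Stard4 (2) were all negative. The count of 8 was 13 with the replicate block, 15 with the 3'-minus-5' signal as a covariate, 4 without open E8.5 array 1 or 3 or closed E8.5 array 1, and 5 without closed E8.5 array 2 or closed E9.5 array 2 or 3. The list's median stayed between -0.80 and -0.60 in these fits and in every other one run.

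**Figure D5:**
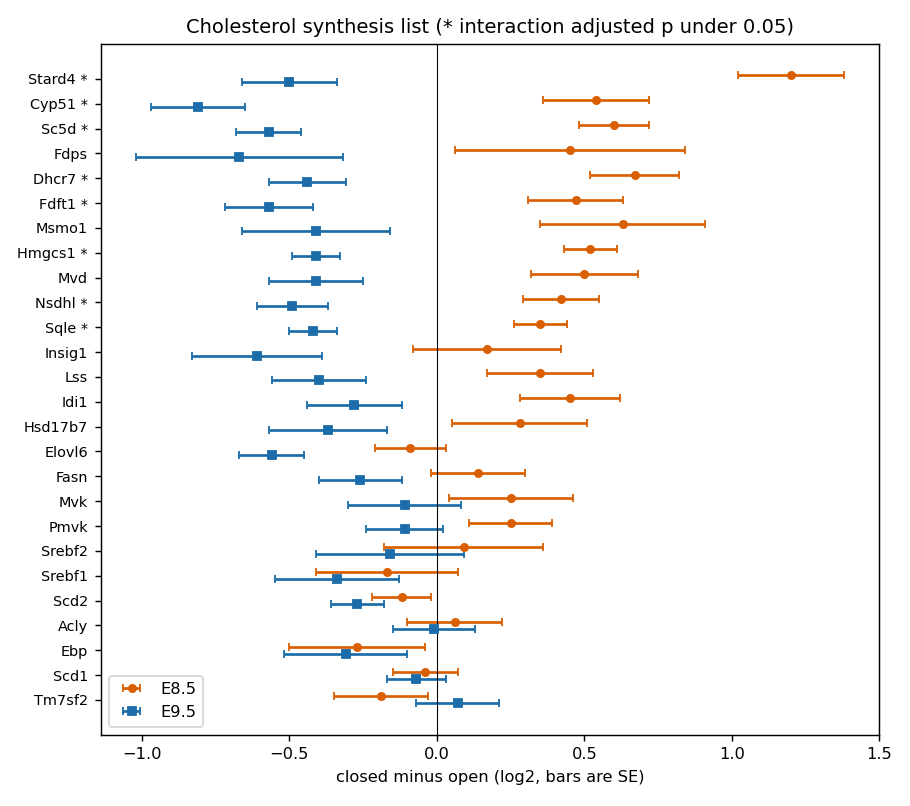
Closed minus open (x axis, log2) at E8.5 (circles) and E9.5 (squares) for the 26 tested genes of the cholesterol synthesis list, which includes some of fatty acid synthesis, with standard errors as bars and an asterisk at genes past the interaction threshold, from the most negative interaction down. Among the called genes the circles lie right of 0 and the squares left of it, as for Hmgcs1 at 0.52 and -0.41.

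Promoters are shown for 4 of the 8 called genes, all of which passed in the same direction. Sequences are RefSeq, GRCm38.p6, 5′ to 3′ on the gene's strand, the 250 bases before the annotated start. Capitals mark the motifs searched on both strands: the CCAAT box (CCAAT, or ATTGG on the other strand), bound by NF-Y, and a sterol regulatory element of the form TCACNCCAC, bound by SREBP. They lie at chr13:119690101-119690350 (+) for Hmgcs1, chr5:4104698-4104947 (-) for Cyp51, chrX:72918271-72918520 (+) for Nsdhl and chr9:42264301-42264550 (-) for Sc5d.
Hmgcs1: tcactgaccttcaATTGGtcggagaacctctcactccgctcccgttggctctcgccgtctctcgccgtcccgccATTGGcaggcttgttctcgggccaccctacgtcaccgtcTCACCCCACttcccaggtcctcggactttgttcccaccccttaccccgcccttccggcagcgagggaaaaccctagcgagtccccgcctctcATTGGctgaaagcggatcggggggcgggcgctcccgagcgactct
Cyp51: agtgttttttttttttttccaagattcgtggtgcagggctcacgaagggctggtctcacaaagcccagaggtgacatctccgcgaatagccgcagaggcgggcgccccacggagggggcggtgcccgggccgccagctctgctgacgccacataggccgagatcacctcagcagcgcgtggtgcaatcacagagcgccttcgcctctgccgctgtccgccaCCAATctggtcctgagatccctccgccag
Nsdhl: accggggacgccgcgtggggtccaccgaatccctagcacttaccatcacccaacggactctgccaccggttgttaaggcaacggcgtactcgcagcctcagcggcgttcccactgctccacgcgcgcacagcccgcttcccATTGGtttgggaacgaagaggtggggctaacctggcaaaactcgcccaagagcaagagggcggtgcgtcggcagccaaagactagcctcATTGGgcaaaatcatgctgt
Sc5d: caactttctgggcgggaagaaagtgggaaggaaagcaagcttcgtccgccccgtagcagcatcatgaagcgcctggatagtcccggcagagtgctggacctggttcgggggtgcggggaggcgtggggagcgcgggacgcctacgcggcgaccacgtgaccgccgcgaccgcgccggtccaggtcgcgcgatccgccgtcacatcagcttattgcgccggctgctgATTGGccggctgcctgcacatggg
Hmgcs1 held the sterol element at -137 to -129 from the start and CCAAT boxes at -237, -176 and -45, Cyp51 held 1 box at -29, Nsdhl boxes at -109 and -20, and Sc5d 1 box at -24. Of the 20 tested members of the list with a promoter in the table, 18 held a CCAAT box (90.0%), against 10133 of 27025 genes in the table (37.5%). The sterol element was in 1 of 20 (5.0%), against 331 genes (1.2%). A gene counted as holding a motif if any of its windows did. The 5 called members with a promoter in the table (Hmgcs1, Cyp51, Nsdhl, Sc5d and Dhcr7) all held a box on this rule. Dhcr7, not shown, has several windows and held boxes only in that at chr7:143829964-143830213. A match of letters describes the window and does not show binding.

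Neural identity and neurogenesis genes passed in both directions. Beside the list counts here and below stand 0.300% of all tested genes that passed as positive and 0.952% as negative. With the replicate block these were 113 and 339 of 13341. Of 27 neural progenitor genes 2 were positive (Rfx4 and Pou3f3) and 2 negative (Sox1 and Fabp7), with a median of -0.13, and 4 and 3 with the replicate block. Pax6 and Olig2, patterning factors of the ventral and intermediate tube, and Zic1, a dorsal one, were far higher in closed tissue at both stages, and their interactions did not pass (-0.70, -0.13 and -0.71, with 95% confidence intervals of -1.23 to -0.16, -1.05 to 0.79 and -1.42 to 0.01, before adjustment over genes). Sox2 gave 0.33 (adjusted p = 0.456). Of 19 neurogenesis genes 3 were positive and 1, Map2, negative, with a median of 0.40. Neurog2, a proneural factor, was 7.64 to 7.99 in open and 9.36 and 9.73 in closed tissue at E8.5, and 6.82 to 7.0 in open and 9.46 to 9.90 in closed tissue at E9.5 (1.10, adjusted p = 0.0468). Gadd45g, a stress and cell cycle exit gene also found in newborn neurons, was 4.20 to 5.83 in the other groups and 6.25 to 6.34 in closed E9.5 tissue (1.30, adjusted p = 0.0425). With Ccnd2, a G1 cyclin (0.55, adjusted p = 0.0459), Gadd45g made the 2 called genes of 17 in the cell cycle exit list (median 0.06, and 3 positive and 1 negative with the block).

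Caudal progenitor genes kept their open-side bias at both stages, with a median closed-minus-open difference of -1.46 at E8.5 and -1.35 at E9.5 over 28 genes. Of these, 19 and 17 were lower in closed tissue (3.38% and 5.79% of tested genes were). Wnt8a, Fst and Rxrg passed, all positive (list median 0.21, and 6 positive and 1 negative with the block). Cyp26a1, which degrades retinoic acid in the caudal end, was 10.81 to 11.67 in open and 7.03 and 7.29 in closed tissue at E8.5, and 11.57 to 12.36 in open and 6.41 to 6.94 in closed tissue at E9.5. Its interaction was -1.17 ± 0.36 (adjusted p = 0.235), and -1.37 with the replicate block (adjusted p = 0.000664). Aldh1a2, which makes retinoic acid, gave -0.63 (adjusted p = 0.146). Of 22 retinoic acid pathway genes Rxrg was positive and Tshz1 negative (median -0.16, and 2 and 2 with the block).

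Of 27 Wnt response genes Ccnd2 was positive and Sfrp5 negative (median 0.00, and 1 and 2 with the block). Of 20 genes of trunk-to-tail timing or let-7 regulation, Nr6a1 was positive and Mycn negative (median 0.09, and 1 and 3 with the block). Lin28a, an RNA-binding partner of let-7 in early embryos, was 11.74 to 12.72 in all groups with an interaction of -0.04 (adjusted p = 0.978), and Gdf11, a signal of the trunk-to-tail transition, was 4.56 to 5.00 (0.28, adjusted p = 0.614). Lin28b lay below the filter, and T (brachyury) was not analysed here. Slc2a1 was the 1 called gene of 19 in glycolysis (median 0.29, and 1 and 1 with the block) and with Bhlhe40 the 2 of 22 in the hypoxia response (median 0.01, and 2 and 1 with the block). Of 24 genes of the dissociation response Ccn2 passed (median -0.16, and 2 negative with the block).

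In the other lists limma called 0 members. Over all 13341 tested genes, 1279 had an unadjusted limma p under 0.05 and 452 passed with the replicate block. The list counts below stand beside these. Of 16 tested presomitic mesoderm genes (median 0.11), 4 had an unadjusted p under 0.05 and 2 passed, both positive, with the replicate block. The same 3 values were 8 genes with a median of -0.38, 1 and 1 (negative) for somite genes, 24 genes with a median of -0.01, 4 and 2 (negative) for dorsal neural tube and BMP response, and 16 genes with a median of 0.21, 1 and 0 for neural crest. Surface ectoderm and epithelium had 26 genes with a median of 0.23, of which 6 had an unadjusted p under 0.05 and 5 passed with the block (4 positive, 1 negative). The Notch pathway (27 genes, median 0.02) had 6 and 3, and p53 targets and apoptosis (20 genes, median -0.07) had 7 and 3. Planar cell polarity (28 genes, median -0.01) and oxidative phosphorylation (28 genes, median 0.07) had 1 and 1 each. DNA replication (32 genes, median -0.08) had 0 and 0, mitosis (23 genes, median -0.05) 1 and 0, and apical junction and actomyosin (34 genes, median -0.07) 2 and 0. Grhl3, a surface ectoderm factor required for closure, was lower in closed tissue by -1.97 ± 0.23 at E8.5 and -1.72 ± 0.21 at E9.5, a difference of 0.25 ± 0.31 (adjusted p = 0.855). Cdkn1a, a p53 target, gave -2.16 ± 0.20 and -3.15 ± 0.18 (interaction -0.99, adjusted p = 0.147, and 0.00379 with the block). A miss of the threshold does not show that these genes held the same difference at both stages.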

How the data were processed

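Values are the authors' deposited log2 signal of 45101 probe sets on 11 arrays, used as given, with array medians of 4.8 to 4.9. The submitters' processing notes name MAS5 with no role, and the background correction and normalization behind these log2 values are not given in the sources used here. Left out were 64 control probe sets, 932 with several gene symbols and 9160 with none in the platform annotation, which left 34945.

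A linear model of 4 group means was run in limma 3.58.1 (R 4.3.3; eBayes moderated over the intensity trend; 7 residual degrees of freedom; 2-sided), and p-values were adjusted by Benjamini-Hochberg over 13341 genes for each contrast. Errors are standard errors of that fit. The code was tested on simulated data. The replicates of a group are separate litter pools per the labels.

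Replicate numbers are shared between groups, and the labels do not say that they pair arrays. Deviations from the group means of same-numbered open and closed arrays correlated over genes (r = 0.576 and 0.697 at E8.5, 0.308, 0.341 and 0.687 at E9.5). At E9.5 open 2 with closed 1 (0.317) and open 1 with closed 2 (0.264) did so as well. Open 3 with closed 1 gave 0.308 at E8.5. The remaining pairs of unlike number lay between -0.697 and -0.308. A fit with the number as a block within each stage, with 3 residual degrees of freedom, is printed where it changes a call. At E8.5 the 2 closed arrays deviate by equal and opposite amounts by construction, so a correlation there is weak evidence of pairing. At E9.5 arrays 1 and 2 of both regions deviated alike whatever their number. Open E8.5 array 3 has no closed partner and adds nothing to the E8.5 difference in the block fit.

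Named were the 10 genes of smallest p in each direction, the 4 of smallest p in each class of group apart, the 2 in each direction of a gene list with the smallest p, and a set of anchor genes. The gene set, the lists and the rule were chosen with earlier results of these data known. Alternatives were other scalings, filters, probe set rules, variance models and array weights, the blocks, an RNA quality covariate and single arrays left out.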

Additional observations from a re-analysis of the deposited data

Results flagged for a closer look

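Every gene past the interaction threshold is by construction a gene whose region difference differed between the stages, 167 in all by limma's adjusted p. The interactions (log2) of the 58 of them that the naming rule gave are listed here by the group that stood apart. High in closed E8.5 tissue were Ankrd44 (-1.67), Dleu7 (-1.55), Fgb (-2.95), Folr1 (-1.36), Pou3f1 (-2.16), Pth1r (-2.88), Sfrp5 (-2.68), Slc12a5 (-3.32) and Sox18 (-0.71). Low in closed E8.5 tissue were Aplnr (1.87), Etv5 (2.21), Hoxa9 (2.21), Hoxc4 (0.97), Hoxc5 (0.80) and Il17rd (1.69). High in open E9.5 tissue were Bhlhe40 (-0.77), Cd83 (-1.94), Has2 (-1.27), Hoxa11 (-3.32), Hoxa5 (-0.93), Hoxd10 (-4.16), Igfbp3 (-1.81) and Scara5 (-2.98). Low in open E9.5 tissue were Fst (1.84), Nr6a1 (2.53), Ptprz1 (1.87), Ret (1.90) and Slc2a1 (0.63). High in open E8.5 tissue were Hoxa7 (1.63), Hoxc8 (2.21), Rxrg (1.15) and Wnt8a (1.70). Low in open E8.5 tissue were Fabp7 (-1.82), Hmgcs1 (-0.93), Kitl (-2.01), Mycn (-0.54), Sox1 (-1.92) and Ston2 (-1.27). High in closed E9.5 tissue were Igfbp5 (1.88) and Neurog3 (0.83). Low in closed E9.5 tissue were Acadl (-1.65), Map2 (-1.74), Rnf128 (-1.45) and Rps6ka5 (-1.37). With no single group apart, the negative interactions were Lpl (-3.18), Ccn2 (-1.72), Lmo2 (-1.54), Tshz1 (-1.27) and Sc5d (-1.17), and the positive ones Ccnd2 (0.55), Neurog2 (1.10), Gadd45g (1.30), Pou3f3 (1.36), Rfx4 (1.38), Pof1b (1.54), Hoxb9 (1.61), Shh (1.63) and Ndnf (1.67). No group had 4 or more arrays, so none was searched for single arrays that lie far from the rest.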

How the results depend on the processing

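All 167 genes kept the sign of their interaction in every alternative fit in which they were tested, and what moved was how many passed. The count was 140 after quantile normalization, 159 with arrays centred on their median, 175 with no filter, 120 with a filter at the 60th percentile, 142 with the mean of a gene's probe sets, 163 without an intensity trend, 162 with robust variances, 214 with array weights, 134 with a size limit of 1 and 118 with probe sets tested one by one (the last chosen after seeing the data). It was 452 with the replicate number as a block within a stage, 129 with the number as a block across stages, 297 with the 3'-minus-5' signal as a covariate, 84 to 239 when 1 array was left out, and 72 without open E9.5 arrays 1 and 2 together. Genes high in closed E8.5 tissue were 25 with the stricter filter, 71 with the block, 25 without those 2 arrays and 28 to 46 with 1 array left out, and genes high in open E9.5 tissue were 29 after quantile normalization, 28 with the stricter filter, 112 with the block, 15 without those 2 arrays and 18 to 68 with 1 array left out. Under the looser rule for the group apart, with no minimum gap, these classes held 48 and 52 genes.

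With 1 array left out, positive interactions were 20 to 55, negative ones 64 to 184, called cholesterol genes 4 to 7, Hox genes of groups 6 to 9 4 to 6 and of groups 10 to 13 1 to 3. The stricter filter left 2 of 7 genes of groups 10 to 13, of which 0 passed. Of the 58 named genes past the threshold, 29 stayed past it in every fit that tested them (Fgb, Sfrp5, Pth1r, Pou3f1, Slc12a5, Dleu7, Ankrd44, Hoxa9, Il17rd, Scara5, Hoxa11, Cd83, Igfbp3, Nr6a1, Hoxc8, Hoxa7, Wnt8a, Sox1, Kitl, Hmgcs1, Sc5d, Acadl, Map2, Lpl, Shh, Hoxb9, Ndnf, Pof1b and Rfx4), and the other 29 fell short in 1 to 18 fits each, most often Ccnd2 (18), Hoxc5, Mycn and Sox18 (16 each). The block within a stage ended 1 named call, that of Sox18, and the block across stages ended 11. The mean of a gene's probe sets also ended 11 (Ccnd2, Etv5, Fst, Has2, Hoxa5, Hoxc5, Mycn, Ptprz1, Rnf128, Slc2a1 and Tshz1), and moved Etv5 to 1.22, Ptprz1 to 0.91, Mycn to -0.20, Hoxc5 to 0.43 and Slc2a1 to 1.18. Genes near 0 changed sign: Lin28a was 0.02 with array weights and -0.20 (without open E9.5 array 2) to 0.12 (without open E9.5 array 3) with 1 array left out, and also positive without closed E9.5 array 1 (0.06). Grhl3 was -0.10 without closed E8.5 array 2 and 0.60 without array 1, its extremes, and -0.07 without open E9.5 arrays 1 and 2. Olig2 was 0.31 without closed E8.5 array 2 and -0.57 without array 1, its extremes, and 0.18 without closed E9.5 array 1. The cause of these shifts was not tested.

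Another probe set was tested for 63 of the 167 genes, 95 probe sets in all, of which 86 had the same direction and 9 the opposite, in 8 genes (Acvr1b, Edaradd, Fdft1, Mecom, Mycn, Sc5d, Scara5 and Spsb1). Only 9 of the 95 passed when probe sets were tested singly. Several of the same direction lay near 0, such as those of Rfx4 (0.07 ± 0.19) and Ret (0.10 ± 0.27), so a shared sign is weak agreement. The number of arrays, 2 or 3 per group, limits the precision, and a gene whose lowest group lies near the floor has its difference understated.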
